A study of Capra hircus with 14 samples.

Results

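A group of 5 genes of glucose handling, out of 30277 genes in the table, was followed through an 8-day protocol. The protocol is meant to turn goat (Capra hircus) fibroblasts into mammary epithelial cells. The genes are TXNIP (listed as gene3204), ARRDC4 (gene20588), the glucose transporter genes SLC2A1 (gene2434) and SLC2A3 (gene5905), and MLXIP (gene16829). The 5 were chosen by symbol from earlier readings of the same libraries, for a difference between odd and even days that was set against a 2-day rhythm of medium renewal. Their differences between odd and even days, every step into or out of day 2, and day 6 against day 4, which shares the day 4 libraries with that difference, are therefore given as a description with no test. Tests are given for day 8 against day 0 and day 8 against day 6, whose libraries do not enter that difference, and for day 3 against day 1, which both enter it on the same side.

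RNA was sequenced in 14 libraries, 2 from each of days 1, 2, 3, 4, 6 and 8 in R induction medium and 2 from day 0, and all cells were labelled wild type. The induced cells, named CiMEC, had been plated on a Matrigel coat in fibroblast medium and moved to R induction medium the day after, with fresh medium every 2 days. The day 0 cells, named GEF, were fibroblasts grown in DMEM with fetal bovine serum. The sources used here give neither the composition of R induction medium nor its glucose content, nor whether cells were collected before or after a renewal. Fibroblasts kept in their own medium to a later day were not analysed here. Effects of the medium and of time in culture therefore cannot be told apart, and neither can those of the day of induction and the time since renewal.

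TXNIP and ARRDC4 encode alpha-arrestins, adaptor proteins that guide membrane proteins into endosomes, and both are known to restrain glucose uptake by drawing glucose transporters off the cell surface. TXNIP also binds thioredoxin and blocks its reducing activity. Their best-known activator in mammalian cells is the pair of MondoA, the product of MLXIP, and MLX, which accumulates in the nucleus when glucose 6-phosphate is plentiful. SLC2A1 encodes GLUT1, the widespread basal glucose transporter and the main one of mammary epithelium, where glucose is needed to make lactose. SLC2A3 encodes GLUT3, a high-affinity transporter best known from neurons.

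Library totals ran from 20515126 to 24746010 estimated counts, and levels are in CPM, counts divided by the library size after edgeR's TMM scaling and brought to a common total. The 15712 genes that passed the filter on low counts included all 5 genes. The 8 fibroblast markers summed to 14100 and 14420 CPM at day 8, against 27670 and 26704 CPM at day 0. The 8 epithelial markers summed to 40818 and 41684 CPM, against 11251 and 10233 CPM, so the cells labelled fibroblasts already held epithelial transcripts. The epithelial markers did not move together. At day 8 KRT5 averaged 25368 CPM and KRT14 14522 CPM, against 3810 and 4388 CPM at day 0. KRT8 fell to 170 CPM, against 1910 CPM at day 0, and KRT18 to 1.57 CPM, against 158 CPM. Of the leukocyte markers PTPRC had no count in any library, and the list summed to at most 129.7 CPM, at day 0. CD14 made up nearly all of that sum, with a mean of 129.0 CPM at day 0, and it fell to 8.33 CPM at day 8. Endothelial markers summed to at most 9.33 CPM. In bulk RNA, fewer cells of a type and less RNA per cell cannot be told apart. The labels do not state that the 2 libraries of a day came from separate cultures, and the p-values reflect library-to-library spread that may be technical.

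TXNIP was low at day 0, lower still at day 2, and otherwise climbed. Its levels in the 2 libraries were 2.91 and 5.38 CPM at day 0, 23.6 and 24.6 CPM at day 1, 2.28 and 1.60 CPM at day 2, 37.9 and 37.0 CPM at day 3, 43.5 and 44.8 CPM at day 4, 83.2 and 86.0 CPM at day 6, and 97.6 and 101.1 CPM at day 8. No 2 days overlapped, and the order from low to high was day 2, day 0, day 1, day 3, day 4, day 6 and day 8. The day 2 libraries held 48 and 32 counts of TXNIP, against 510 and 557 at day 1 and 860 and 951 at day 3. The fitted level at day 2 was 12.4-fold below day 1, a log2 difference of -3.63 ± 0.165 (SE), and day 3 was 19.2-fold above day 2, a log2 difference of 4.26 ± 0.155.

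ARRDC4 had its own low point on the same day, less deep. Its levels were 3.51 and 3.53 CPM at day 0, 34.5 and 30.8 CPM at day 1, 16.3 and 14.5 CPM at day 2, 32.1 and 33.6 CPM at day 3, 34.1 and 32.2 CPM at day 4, 29.2 and 31.1 CPM at day 6, and 27.9 and 26.5 CPM at day 8. Day 0 was lowest and day 2 next, each apart from all other days, then came day 8 and day 6, while days 1, 3 and 4 overlapped one another and day 6 overlapped day 1. The day 2 level was 2.12-fold below day 1, a log2 difference of -1.08 ± 0.0886 (SE), and day 3 was 2.14-fold above day 2, a log2 difference of 1.09 ± 0.0879. The day 1 libraries of ARRDC4 already overlapped those of its highest days, while TXNIP was highest at day 8.

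**Figure D1:**
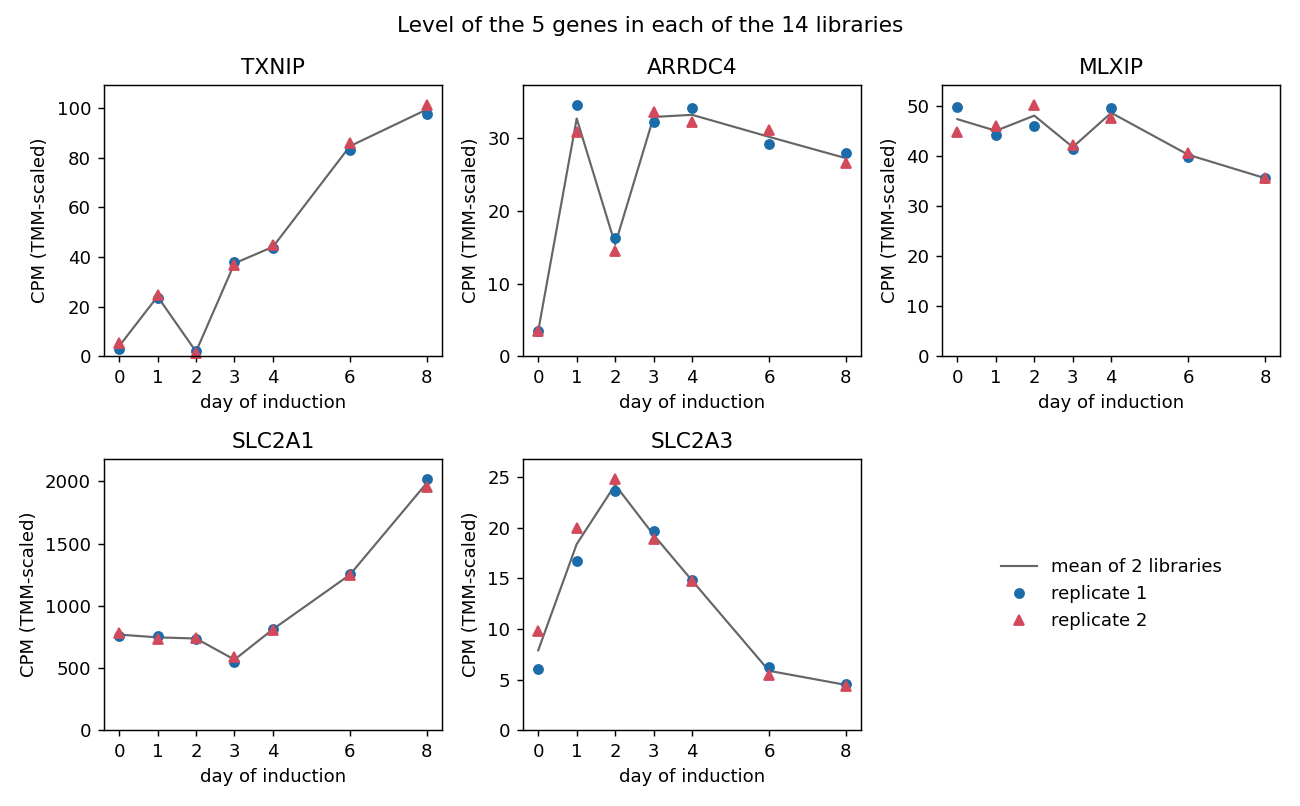
Levels of TXNIP, ARRDC4, SLC2A1, SLC2A3 and MLXIP in CPM (vertical axes, each starting at 0) by day of induction (horizontal axes); each point is 1 of the 2 libraries of a day and lines join the means. TXNIP falls to 1.94 CPM at day 2 and reaches 99.4 CPM at day 8, and ARRDC4 falls to 15.4 CPM at day 2 and stays between 27.2 and 33.1 CPM from day 3 on.

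Over days 1 to 4 the values of TXNIP and ARRDC4 do not form an alternation. A gene that alternates would be low at days 2 and 4 and high at days 1 and 3, but TXNIP was higher at day 4 than at day 3 by a log2 difference of 0.24 ± 0.0926 (SE), and ARRDC4 differed between those days by 0.01 ± 0.0798. At days 6 and 8, also even days, TXNIP was at its highest, and ARRDC4 stood at 30.1 and 27.2 CPM, above its day 2 level. The mean of days 1 and 3 minus the mean of days 2 and 4 was still 1.70 ± 0.0987 for TXNIP and 0.54 ± 0.0597 for ARRDC4 on the log2 scale, although only day 2 was low. Among the sampled days from day 1 on, the feature they share is a single low point at day 2. Both were also low at day 0, at 4.14 CPM for TXNIP and 3.52 CPM for ARRDC4, which was lowest there. No odd day after day 3 was sampled, so an alternation after day 4 cannot be judged.

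That low point was described with a further contrast, day 2 minus the mean of days 1 and 3, which was chosen after these values had been seen. For TXNIP it came to -3.94 ± 0.149 (log2 ± SE), a 15.4-fold difference and the 15th lowest of the 15712 genes. For ARRDC4 it came to -1.09 ± 0.0790, the 485th lowest. SLC2A1, SLC2A3 and MLXIP stood on the other side, at 0.18 ± 0.0389, 0.36 ± 0.107 and 0.15 ± 0.0598. Of all genes tested, 21.3% were called lower at day 2 in this contrast and 26.3% higher, and the median log2 difference was 0.02. All 8 fibroblast markers were called above the mean of days 1 and 3 at day 2. Of the 8 epithelial markers 4 were called above it, 3 below and 1 not called. Such a call need not be a peak at day 2. VIM, COL1A1, PDGFRA and S100A4 fell from day 1 to day 2 and again to day 3. COL1A2, PDGFRB, THY1 and DCN had their highest mean of those days at day 2. KRT5, KRT8, KRT18 and KRT19, the epithelial markers called above, rose from day 1 to day 2 and again to day 3. The part of both marker lists in the low point was not tested.

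Differences between odd and even days were common among all genes. A steady rise or fall over days 1 to 4 also gives a difference in this contrast, without any alternation. By edgeR's quasi-likelihood test, at a Benjamini-Hochberg adjusted p under 0.05, 4035 genes (25.7%) were higher and 5071 (32.3%) lower on days 1 and 3 than on days 2 and 4, together 58.0% of those tested. With library totals alone as the scale the split turned to 5173 higher and 3603 lower, and the median of all genes moved to 0.05 from -0.05 on the log2 scale. A full alternation, lower on even days with all 3 steps from day 1 to day 4 called, was met by 1572 genes (10.0%), and the opposite one by 1562 genes (9.94%). With library totals alone these were 2149 and 827 genes. By the same calls, 1960 genes (12.5%) were lower at day 2 than on both neighbouring days, and 388 of them (2.47% of all tested) were not lower at day 4 than at day 3. These last patterns were set after the values of TXNIP and ARRDC4 were known, and nothing is read from their shares.

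Long and short genes differed in this contrast. With genes divided into 4 classes of near-equal size by deposited length, the median log2 difference between odd and even days was -0.12 in the shortest class, up to 1654 bases, and 0.03 in the longest, from 4205 bases. TXNIP, with 2886 bases, and ARRDC4, with 4123 bases, lay in the class from 2689 to 4204 bases, whose median was -0.03. The part of length in the values of the 5 genes was not tested.

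The balance between the 2 arrestin genes shifted with time. Levels of different genes are compared here only per length, as CPM per kb of the deposited gene length. TXNIP stood at 1.68 ± 0.707 times ARRDC4 (SD, n = 2) at day 0, 1.06 ± 0.117 at day 1, 0.179 ± 0.0303 at day 2, 1.63 ± 0.0785 at day 3, 1.90 ± 0.118 at day 4, 4.01 ± 0.0879 at day 6 and 5.22 ± 0.316 at day 8. Day 2 was the only day on which both libraries held much less TXNIP than ARRDC4 per length. At day 1 the libraries fell on either side of parity, with ratios of 0.978 and 1.14.

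**Figure D2:**
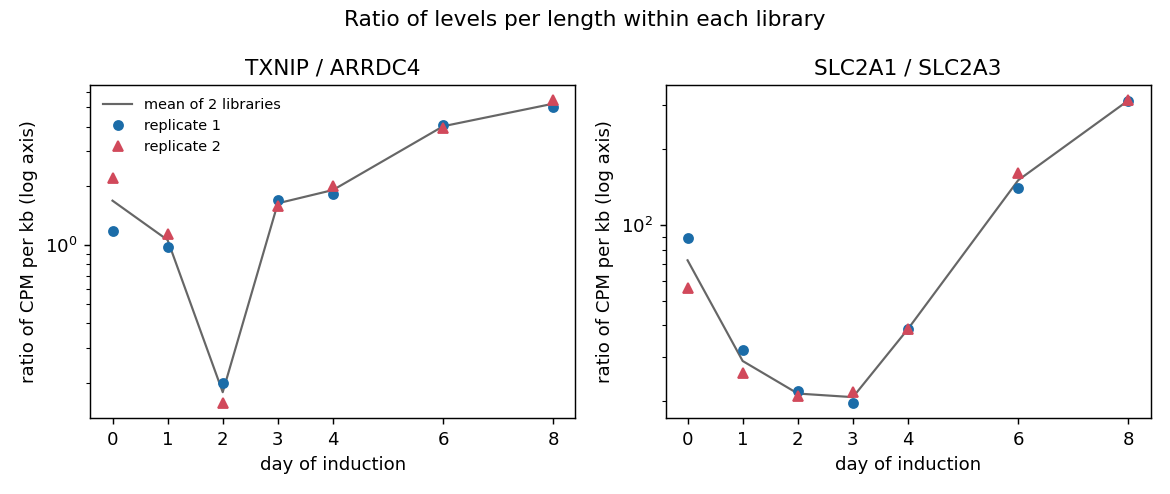
Ratio of CPM per kb within each library (log axes) by day of induction, TXNIP to ARRDC4 on the left and SLC2A1 to SLC2A3 on the right; points are the 2 libraries of a day and lines join their means. The TXNIP ratio is lowest at day 2, with 0.201 and 0.158, and the SLC2A1 ratio rises between day 3 and day 8, where it reaches 312 and 314.

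Across the whole course, both arrestin genes were higher at day 8 than at day 0. In this comparison 36.0% of genes were called higher and 35.0% lower, 70.9% together, and the median log2 fold change was 0.02. TXNIP averaged 99.4 ± 2.50 CPM at day 8 and 4.14 ± 1.75 CPM at day 0 (SD, n = 2 each), a log2 fold change of 4.58 ± 0.123 (SE; edgeR adjusted p = 2.84e-20). The day 0 pair was uneven, and the log2 fold change was 4.20 without the first day 0 library and 5.12 without the second. ARRDC4 averaged 27.2 CPM at day 8 and 3.52 CPM at day 0, a log2 fold change of 2.95 ± 0.115 (adjusted p = 5.35e-17). All day 8 libraries lay above all day 0 libraries for both genes. Of the 8 epithelial markers 6 were higher and 2, KRT8 and KRT18, lower between these days. Of the 8 fibroblast markers 1 was higher and 7 lower. The part of both marker lists in the result was not tested.

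Between day 3 and day 1, both odd, TXNIP was higher by a log2 fold change of 0.63 ± 0.0983 (SE; edgeR adjusted p = 1.28e-05), and for ARRDC4 the value was 0.01 ± 0.0797 (adjusted p = 0.933), with 39.5% of all genes called, 19.2% higher and 20.3% lower. Fibroblast markers summed to 16378 and 17228 CPM at day 3, against 29594 and 29694 CPM at day 1, and epithelial markers to 8466 and 8722 CPM at day 3, against 3375 and 3385 CPM at day 1. Their part in the result was not tested, nor was the difference between the 2 arrestin genes.

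Day 6 against day 4 is a description for the 5 genes. TXNIP stood at 0.94 ± 0.0882 (log2 ± SE) and ARRDC4 at -0.14 ± 0.0812. Over all genes 54.2% were called, 3615 higher (23.0%) and 4907 lower (31.2%), but 4693 and 2961 with library totals alone. Fibroblast markers summed to 18331 and 18431 CPM at day 6, against 22950 and 23478 CPM at day 4, and epithelial markers to 21274 and 22317 CPM at day 6, against 14364 and 14654 CPM at day 4, and their part was not tested.

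Between day 6 and day 8, where 48.8% of genes were called, the remaining change of TXNIP was small. It was higher at day 8 by 0.23 ± 0.0831 (log2 ± SE; edgeR adjusted p = 0.0236), a call lost with library totals alone (0.12, adjusted p = 0.285) and with a filter at 10 CPM (0.18, adjusted p = 0.0701). It was also lost when any of the 4 compared libraries was left out, with adjusted p = 0.123 and 0.0576 without the first and second day 6 library and 0.0646 and 0.149 without the first and second day 8 library. ARRDC4 stood at -0.15 ± 0.0824 (adjusted p = 0.142). Library totals alone also turned the split of all calls to 2600 higher and 4853 lower, where TMM scaling gave 4021 (25.6%) and 3650 (23.2%).

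SLC2A1, the GLUT1 gene, had the highest level per length of the 5 on every day and followed another course. Its levels were 756 and 781 CPM at day 0, 757 and 737 CPM at day 1, 736 and 738 CPM at day 2, 549 and 586 CPM at day 3, 816 and 808 CPM at day 4, 1252 and 1248 CPM at day 6, and 2021 and 1955 CPM at day 8. Day 3 was lowest and apart from all others, days 0, 1 and 2 overlapped in a chain, and days 4, 6 and 8 rose in order without overlap. At day 2, when TXNIP was at its minimum, SLC2A1 differed from day 1 by a log2 difference of -0.02 ± 0.0451 (SE). Its estimated counts were not whole numbers in any of the 14 libraries, and how reads at this gene were shared out is not known, whereas the other 4 genes had whole counts throughout.

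SLC2A1 was higher at day 8, at 1988 CPM, against 769 CPM at day 0, with a log2 fold change of 1.37 ± 0.0456 (SE; edgeR adjusted p = 2.05e-18). Day 3 was below day 1, at -0.40 ± 0.0452 (adjusted p = 1.40e-07). Day 6 stood above day 4 by 0.62 ± 0.0451, as a description, and the transporter gene rose by 0.67 ± 0.0449 at day 8 against day 6 (adjusted p = 2.93e-11). In the same pairs of days, in that order, TXNIP, whose product restrains this transporter at the membrane, stood at 4.58, 0.63, 0.94 and 0.23. The call of the last was lost under several alternatives, as given above.

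SLC2A3, the GLUT3 gene, peaked at day 2 and was low at both ends. Its levels were 5.998 and 9.79 CPM at day 0, 16.8 and 19.997 CPM at day 1, 23.6 and 24.8 CPM at day 2, 19.7 and 18.9 CPM at day 3, 14.8 and 14.7 CPM at day 4, 6.28 and 5.45 CPM at day 6, and 4.56 and 4.39 CPM at day 8. Day 8 lay below all other days, days 6 and 0 overlapped, days 1 and 3 overlapped, and day 2 lay above the rest. SLC2A3 was lower at day 8 than at day 0 with a log2 fold change of -0.82 ± 0.177 (SE; edgeR adjusted p = 0.000251). That value rested on an uneven day 0 pair: it was -1.13 without the first day 0 library and -0.40 without the second, where the adjusted p was 0.0489.

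After its day 2 peak SLC2A3 stood at -0.71 ± 0.129 (log2 ± SE) at day 4 against day 2 and at -1.33 ± 0.155 at day 6 against day 4, both as a description. Day 8 against day 6 gave -0.39 ± 0.186 (edgeR adjusted p = 0.0864) and day 3 against day 1 gave 0.07 ± 0.126 (adjusted p = 0.711). Per length, SLC2A1 exceeded SLC2A3 on every day, by 72.5 ± 23.0 times (SD, n = 2) at day 0, 28.9 ± 4.14 at day 1, 21.5 ± 0.708 at day 2, 20.8 ± 1.55 at day 3, 38.7 ± 0.179 at day 4, 151 ± 14.6 at day 6 and 313 ± 0.917 at day 8.

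MLXIP, which encodes the glucose sensor MondoA, varied least of the 5. Its levels were 49.8 and 44.9 CPM at day 0, 44.2 and 45.9 CPM at day 1, 45.9 and 50.2 CPM at day 2, 41.4 and 42.1 CPM at day 3, 49.6 and 47.6 CPM at day 4, 39.8 and 40.6 CPM at day 6, and 35.57 and 35.56 CPM at day 8. Day 0 overlapped days 1, 2 and 4, and day 2 overlapped day 4, while day 1 lay below days 2 and 4, with day 3 below them all, day 6 below day 3 and day 8 lowest. At day 2, where the 2 arrestin genes were low, MLXIP differed from day 1 by a log2 difference of 0.09 ± 0.0692 (SE).

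MLXIP was lower at day 8 than at day 0 with a log2 fold change of -0.41 ± 0.0706 (SE; edgeR adjusted p = 1.52e-05), opposite in sign to TXNIP and ARRDC4. The day 6 against day 4 value, a description, was -0.27 ± 0.0697, but -0.13 with library totals alone. The day 8 against day 6 value was -0.18 ± 0.0714 (adjusted p = 0.0424), a call lost without a filter on low counts (adjusted p = 0.0688), with DESeq2 (adjusted p = 0.0968) and without either library of day 1, 3, 6 or 8. Day 3 and day 1 differed by -0.11 ± 0.0691 (adjusted p = 0.229). These values concern its RNA, whereas MondoA is known to be governed largely by where the protein sits in the cell.

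The partners and relatives of MondoA were looked at for changes at day 2. MLX, the obligate partner of MondoA, was higher at day 2, at 49.0 CPM, against 36.3 CPM at day 1 and 37.4 CPM at day 3, a log2 difference of 0.41 ± 0.0569 (SE; edgeR adjusted p = 2.36e-06). MYC, which shares DNA sites with the Mondo family through the MAX network, was also higher by 0.24 ± 0.0468 (adjusted p = 0.000196). MGA, a MAX-binding repressor, was lower, at -0.47 ± 0.0856 (adjusted p = 8.07e-05). MLXIPL, the ChREBP gene, stayed under 2 CPM on all days. Of the 11 tested relatives other than MLXIP, 3 were higher at day 2, 2 lower and 6 not called; the median was 0.18, against 26.3% higher, 21.3% lower and a median of 0.02 over all genes.

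Between odd and even days the same 11 genes held 3 higher, 6 lower and 2 not called; the median log2 difference was -0.18, against 25.7% higher, 32.3% lower and a median of -0.05 over all genes. MXD4, a MYC antagonist, was lower on odd days, at -0.64 ± 0.0491 (log2 ± SE; edgeR adjusted p = 9.90e-11). MXD3, a related antagonist, was called higher, at 0.59 ± 0.130 (edgeR adjusted p = 0.000413). It mostly fell, with 6.34, 4.26, 4.45 and 2.91 CPM over days 1 to 4. At day 8 against day 0 the 11 genes held 2 higher, 7 lower and 2 not called, against 36.0% higher and 35.0% lower over all genes. MYCL fell to 3.28 CPM at day 8, against 11.9 CPM at day 0, and MGA rose to 47.1 CPM, against 18.1 CPM. The call of MLX in that comparison, at -0.19, was lost without the first day 0 library and without the second day 8 library. That of MXI1, at 0.44, was lost with DESeq2, without the first day 0 library and without the first day 8 library.

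Other genes known as targets of Mondo or ChREBP, mostly from mammalian liver, went in both directions at day 2. Of 7 tested, besides TXNIP and ARRDC4, 2 were higher at day 2 than at days 1 and 3 (1 by DESeq2), 1 was lower and 4 were not called. The median was 0.04, and the shares were near the 26.3% higher and 21.3% lower of all genes. The lower one was KLF10, a glucose-responsive repressor, which averaged 38.7 CPM at day 2, against 47.5 CPM at day 1 and 59.3 CPM at day 3, a log2 difference of -0.46 ± 0.0600 (SE; edgeR adjusted p = 1.17e-06). TKFC, a kinase of fructose metabolism, went the other way by 0.80 ± 0.0942 (adjusted p = 2.53e-07). KLF10 also reached 122.9 CPM at day 8, against 73.0 CPM at day 0 (log2 fold change 0.75 ± 0.0611, adjusted p = 8.70e-11). At day 8 against day 0 the list held 3 genes higher, 4 not called and 0 lower by edgeR. With an unadjusted p under 0.05, 1 was lower, and by DESeq2 0 were lower. Over all genes 36.0% were higher and 35.0% lower in that comparison. FASN and PKLR, the fatty acid synthase and liver pyruvate kinase genes, are named here after their values were seen: they stood at -0.14 ± 0.0677 (adjusted p = 0.0687) and -1.10 ± 0.518 (adjusted p = 0.0615), and each was called lower under at least 1 alternative. Between odd and even days the list held 0 higher by edgeR, also 0 at an unadjusted p under 0.05 and by DESeq2. There 2 were lower and 5 not called, against 25.7% higher and 32.3% lower over all genes. Of the lower pair TKFC was at -0.88 ± 0.0776 (edgeR adjusted p = 9.12e-10), and ACACA lost its call with library totals alone. G6PC and FGF21 had too few counts to be tested.

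**Figure D3:**
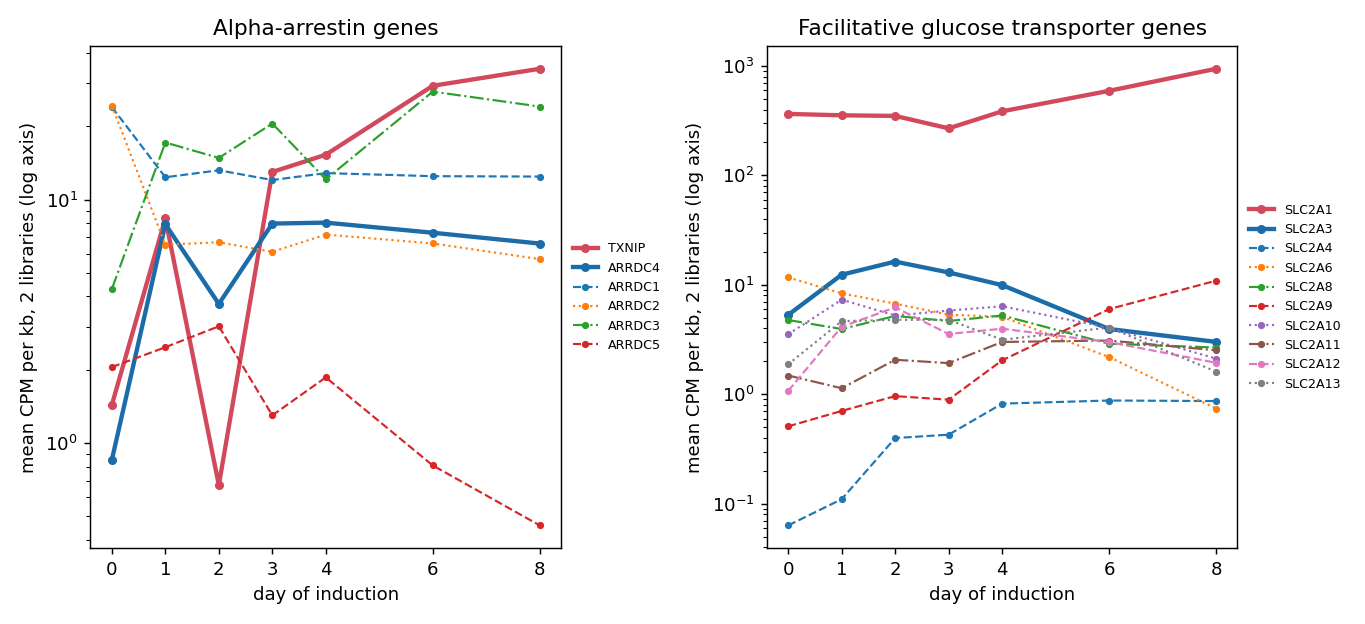
Mean level of the alpha-arrestin genes (left) and facilitative glucose transporter genes (right) in CPM per kb (log axes) by day of induction, with TXNIP, ARRDC4, SLC2A1 and SLC2A3 as thick lines; SLC2A2, listed at 0 at day 0, is left out. The other alpha-arrestins show no dip at day 2 as deep as that of TXNIP, and SLC2A1 lies above the other transporters on every day.

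Among the other 4 alpha-arrestin genes, ARRDC3, which is best known for the turnover of adrenergic receptors and as a suppressor in breast cells, came nearest to the course of TXNIP. It averaged 61.7 CPM at day 2, against 71.3 CPM at day 1 and 85.4 CPM at day 3, a log2 difference of -0.34 ± 0.0523 (SE; edgeR adjusted p = 9.67e-06). Unlike TXNIP, it was low again at day 4, at 50.4 CPM, and it was higher at day 8, at 100.2 CPM, than at day 0, at 17.9 CPM, by 2.49 ± 0.0678 (adjusted p = 3.98e-20). ARRDC5 was higher at day 2 by 0.75 ± 0.116 (adjusted p = 1.01e-05). ARRDC1 and ARRDC2 stood at 0.11 ± 0.0878 and 0.08 ± 0.0924 in that contrast and were not called.

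The arrestin genes split at day 8 against day 0. ARRDC1 fell by 0.95 on the log2 scale, to 20.7 CPM at day 8, against 39.9 CPM at day 0. ARRDC2 fell by 2.09, to 13.9 CPM at day 8, against 59.4 CPM at day 0, and ARRDC5 fell by 2.15, to 1.60 CPM at day 8, against 7.13 CPM at day 0. TXNIP, ARRDC3 and ARRDC4 were higher. ARRDC5 was not tested with the filter at 10 CPM, and the other calls of the 4 relatives held in the alternatives tried.

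The other glucose transporter genes moved in several directions. Of 9 tested besides SLC2A1 and SLC2A3, 4 were higher at day 8 than at day 0, 3 lower and 2 not called, against 36.0% higher and 35.0% lower over all genes. SLC2A9, which carries urate and glucose, averaged 26.9 CPM at day 8 and 1.26 CPM at day 0, a log2 fold change of 4.41 ± 0.203 (SE; edgeR adjusted p = 1.33e-15), and 5.09 without the second day 0 library. SLC2A6 fell to 1.65 CPM at day 8, against 26.1 CPM at day 0, by 3.98 on the log2 scale (adjusted p = 2.43e-17). SLC2A4, the insulin-regulated GLUT4 gene, stood at 1.59 CPM at day 8, against 0.116 CPM at day 0, where it had so few counts that no fold is given. SLC2A12 had its highest level at day 2, 14.7 CPM, as SLC2A3 did.

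Between odd and even days the 9 transporter genes gave 3 higher, 5 lower and 1 not called, against 25.7% higher and 32.3% lower over all genes. Of these, SLC2A8 and SLC2A6 were lost under several alternatives and SLC2A10 when single libraries were left out. In this contrast SLC2A11, SLC2A9 and SLC2A12 stood at -0.75, -0.82 and -0.37 on the log2 scale. SLC2A9 mostly rose, with 1.74, 2.37, 2.20 and 5.03 CPM over days 1 to 4. SLC2A4, also called lower, rose from day to day, with 0.202, 0.731, 0.786 and 1.51 CPM. Its counts at day 1 were so few that no fold is given. SLC2A13, a proton-coupled myo-inositol carrier, was called higher, at 0.28 ± 0.0843 (edgeR adjusted p = 0.00602). Its means were 33.4, 34.4, 34.4 and 22.6 CPM on those days, so day 4 was the low one.

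**Figure D4:**
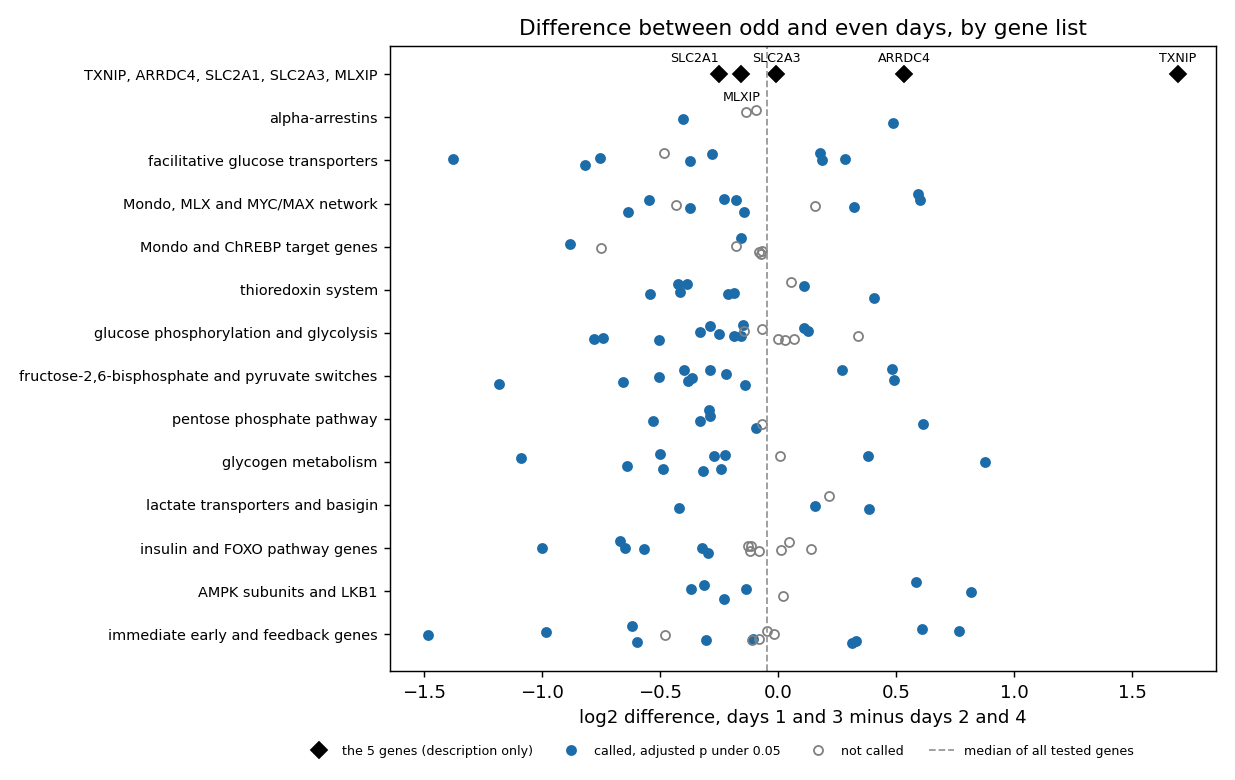
Log2 difference between odd days (1 and 3) and even days (2 and 4) for each tested gene (horizontal axis) by gene list (rows); filled circles passed the edgeR test, open circles did not, diamonds are the 5 genes, shown as a description, and the dashed line is the median of all tested genes. TXNIP, at 1.70, lies to the right of every listed gene, and ARRDC4, at 0.54, within the range of the lists.

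Genes of the thioredoxin system, the redox partners of TXNIP, were mostly higher at day 2. Of 9 tested, 7 were higher, 1 lower and 1 not called against days 1 and 3 (6 higher by DESeq2), and the median was 0.25. The all-gene shares were 26.3% higher and 21.3% lower, and the all-gene median was 0.02. By length class, the median of all genes in this contrast ran from 0.12 in the shortest to -0.06 in the longest. PRDX2, a peroxidase fed by thioredoxin, was higher by 0.42 ± 0.0444 (log2 ± SE; edgeR adjusted p = 5.08e-08), and TXNRD2, the mitochondrial thioredoxin reductase gene, by 0.46 ± 0.0771 (adjusted p = 3.17e-05). The lower one was TXNRD1, the cytosolic reductase gene, at -0.35 ± 0.0499 (adjusted p = 4.16e-06). PRDX2 has 967 deposited bases, TXNRD2 1667 and TXNRD1 3885, while TXNRD3, also higher at 0.25 ± 0.0967, has 4371. The part of length in these counts was not tested. Between odd and even days 2 of the 9 were higher, 6 lower and 1 not called, against 25.7% higher and 32.3% lower over all genes. Against day 0, 3 of the 9 were higher at day 8, 5 lower and 1 not called, where 36.0% of all genes were higher and 35.0% lower.

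Glycolysis genes were mostly lower at day 8 than at day 0 while SLC2A1 was higher. Of 17 tested, 2 were higher, 13 lower and 2 not called; the median log2 fold change was -0.84. The all-gene shares were 36.0% higher and 35.0% lower, and the all-gene median was 0.02. GAPDH fell by 0.85 on the log2 scale, to 2027 CPM at day 8, against 3643 CPM at day 0 (edgeR adjusted p = 2.09e-12), and ENO2, a neuronal-type enolase gene, by 3.18. PFKM, the muscle phosphofructokinase gene, was higher by 0.91 ± 0.115 (adjusted p = 1.69e-07). PKM and HK2, named after their values had been seen, stood at -2.02 ± 0.0549 (adjusted p = 3.63e-20) and 1.34 ± 0.0949 (adjusted p = 6.39e-12). Between odd and even days, 2 of the 17 were higher, 9 lower and 6 not called, against 25.7% higher and 32.3% lower over all genes. With library totals alone 5 of the 17 were higher, where all genes shifted too, to 5173 higher and 3603 lower.

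The switch genes of glycolysis and pyruvate use were led by PDK4, the kinase gene that holds pyruvate back from oxidation in the mitochondria. It averaged 166.2 CPM at day 8 and 0.303 CPM at day 0, a fitted log2 fold change of 9.07 that rests on few counts at day 0. Its course had no low point at day 2: the day means were 5.22 CPM at day 1, 13.1 CPM at day 2, 10.6 CPM at day 3, 21.5 CPM at day 4 and 94.9 CPM at day 6. MPC1, a subunit of the mitochondrial pyruvate carrier, fell by 1.498 on the log2 scale at day 8 against day 0 (edgeR adjusted p = 5.73e-14). Of the 12 tested, 6 were higher at day 8, 4 lower and 2 not called, against 36.0% and 35.0% of all genes higher and lower, and between odd and even days 3 were higher and 9 lower, against 25.7% and 32.3%.

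Other branches of glucose use held genes that zigzagged over days 1 to 4. RPE, of the pentose phosphate pathway, averaged 30.1 CPM at day 1, 19.8 CPM at day 2, 28.7 CPM at day 3 and 18.6 CPM at day 4, with an odd to even log2 difference of 0.61 ± 0.0571 (SE; edgeR adjusted p = 2.29e-09). UGP2, which makes the UDP-glucose used for glycogen, was higher on odd days by 0.38 ± 0.0433 (adjusted p = 5.83e-08), while GYS1, the glycogen synthase gene of muscle and most other tissues, was lower, at -0.50 ± 0.0398 (adjusted p = 1.57e-10). Of 11 glycogen genes 2 were higher, 8 lower and 1 not called, and of 7 pentose phosphate genes 1 was higher, 5 lower and 1 not called, against 25.7% higher and 32.3% lower over all genes. At day 8 against day 0 the counts were 4 higher, 5 lower and 2 not called for glycogen, and 0 higher, 5 lower and 2 not called for pentose phosphate genes by edgeR, with 0 higher also at an unadjusted p under 0.05 and by DESeq2, against 36.0% higher and 35.0% lower over all genes.

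Signals that are known to change TXNIP or glucose uptake were listed as well. For AMPK, an energy sensor that marks TXNIP for degradation, 7 genes were tested, its subunits and STK11, which encodes its upstream kinase LKB1. Of these 2 were higher on odd days, 4 lower, STK11 among them, and 1 not called, against 25.7% higher and 32.3% lower over all genes. PRKAA1 and PRKAA2, its catalytic subunits, were the higher pair, by 0.59 ± 0.0603 (log2 ± SE; edgeR adjusted p = 1.17e-08) and 0.82 ± 0.122 (adjusted p = 3.54e-06). Of 13 insulin and FOXO genes, 0 were higher on odd days by edgeR, also 0 at an unadjusted p under 0.05 and by DESeq2. There 6 were lower and 7 not called, against the same all-gene shares of 25.7% higher and 32.3% lower. SESN3, a FOXO target, reached 570 CPM at day 8, against 30.5 CPM at day 0, a log2 fold change of 4.23 ± 0.0827 (adjusted p = 6.22e-23). At day 8 against day 0, 6 of those 13 were higher, 5 lower and 2 not called. Of the 7 AMPK and STK11 genes 3 were higher, 1 lower and 3 not called in that comparison. Over all genes 36.0% were higher and 35.0% lower.

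Immediate early genes, which respond quickly to fresh serum or growth factors, and feedback genes of the same signals were looked at because the time since renewal was not known. Of 15 tested, 4 were higher on odd days, 6 lower and 5 not called; the median log2 difference was -0.11. The all-gene shares were 25.7% higher and 32.3% lower, and the all-gene median was -0.05. EGR1 averaged 5.81 CPM at day 1, 11.3 CPM at day 2, 5.995 CPM at day 3 and 24.1 CPM at day 4, an odd to even difference of -1.48 ± 0.0758 (SE; edgeR adjusted p = 8.10e-14). FOS stood at 13.5, 24.0, 19.9 and 44.0 CPM on those days, a difference of -0.98 ± 0.0632 (adjusted p = 4.18e-12). FOSL1 was called higher in this contrast, at 0.77 ± 0.0483 (edgeR adjusted p = 3.01e-12). It fell over those days, with 86.3, 40.3, 39.7 and 29.3 CPM, so day 3 was not above day 2. At day 0 EGR1 averaged 81.3 CPM and FOS 16.7 CPM. The relation of EGR1 and FOS to the course of TXNIP was not tested. At day 8 against day 0, 3 of the 15 were higher, 11 lower and 1 not called, against 36.0% higher and 35.0% lower over all genes. Of 3 lactate transporter genes and BSG, their chaperone basigin, 2 were higher on odd days, 1 lower, which was BSG, and 1 not called. Over all genes 25.7% were higher and 32.3% lower. At day 8 against day 0, 1 was higher, 2 lower and 1 not called, against 36.0% higher and 35.0% lower over all genes. In that comparison SLC16A3, an exporter of lactate, fell by 3.02 on the log2 scale (adjusted p = 7.92e-19).

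The genes whose course over the 14 libraries was most like each of the 5 were ranked by Pearson's r of log2(CPM + 1) among 10201 other genes with a mean of at least 5 CPM. The libraries share days and their pairs, so r is a description. For TXNIP the leading genes were NOTCH1, a receptor of cell fate decisions (r = 0.961), KIAA0753 (0.960), RCOR1 (0.947), PAFAH1B1 (0.928), PHTF1 (0.919), FLAD1 (0.916), SCP2 (0.899) and AASDH (0.897). NOTCH1 averaged 283 CPM at day 1, 221 CPM at day 2, 289 CPM at day 3 and 378 CPM at day 8, a dip at day 2 much shallower than that of TXNIP. ARRDC4 ranked 448th in likeness to TXNIP (r = 0.719), and SLC2A1 1384th (r = 0.559).

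For ARRDC4 the leading genes were AKAP3 (r = 0.979), DDIT4, a stress-induced inhibitor of mTORC1 (0.973), FGGY (0.971) and TBCK (0.965). SLC2A1 was most like IGFBP3, a binding protein of insulin-like growth factors (0.996), EPPK1 (0.986), TNS4 (0.984) and POU2F3 (0.978). IGFBP3 averaged 302 CPM at day 3 and 4675 CPM at day 8. SLC2A3 was most like EPDR1 (0.978), TOX (0.977), SMYD4 (0.976) and ADD2 (0.975), and MLXIP was most like MCRIP1 (0.964), WSCD2 (0.960), CLIP3 (0.960) and MMP2, a matrix metalloproteinase gene (0.954). The 2 transporter genes ran against each other, with r = -0.825 over the 14 libraries.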

How the data were processed

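The authors deposited 1 table of estimated counts per gene for 14 RNA libraries, with the gene length in bases, per the file headers. Per the labels' protocols, total RNA was depleted of ribosomal RNA (Ribo-Zero Gold) before TruSeq library preparation. The submitters' processing notes name DESeq2 1.16.1, FastQC 0.10.1 and HTSeq. An aligner, a genome build and a strand setting are not named in the sources used here, so no coordinates are printed, and reads of overlapping genes cannot be told apart. Of the deposited values, 90.0% (83.1% of those above 0) were whole. The line of 1 gene held no values. The table itself named 25219 genes; 3687 more were named from RefSeq (assembly ARS1.2) by Entrez identifier, and 1371 had no symbol.

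Estimated counts were rounded and fitted with edgeR 4.0.16, run in R 4.3.3 with limma 3.58.1, after filterByExpr and TMM scaling. The model had a group per day over all 14 libraries, with 2-sided quasi-likelihood F tests, Benjamini-Hochberg adjustment over 15712 genes 7 residual degrees of freedom, and a call wherever adjusted p was below 0.05. Standard errors are the size of the log2 fold change over the root of F. The script was tested on simulated data. Libraries of a day differed by more than sampling noise (chi-square per degree of freedom 1.80 to 8.12, highest at day 0), and tests against day 0 may understate that spread. Libraries with the same replicate number did not deviate together (r of -0.249 to 0.125 over 21 pairs of days), so the numbers were not used as pairs.

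The 5 genes, the gene lists and the tests were chosen with earlier results of these data known. All 5 genes and all tested arrestin, transporter and Mondo and MYC network genes could be named, and from other lists up to 6 genes with a mean of at least 1 CPM, by the size of the called change between odd and even days and then at day 8 against day 0. Genes outside that rule are marked. Alternatives changed the scaling, filter, test, libraries or contrast, or left out single libraries. Depth limits low genes: 3 counts in a library is the floor of detection, and floors and errors cover no variation between cultures. Some genes of the lists are not reported here by name.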

Additional observations from a re-analysis of the deposited data

How the results depend on the processing

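Numbers of genes called stayed within 1.5 times in all 150 alternatives. With the replicate number as a block, 8975 genes were called between odd and even days, 11023 at day 8 against day 0 and 3028 in alternation. For the 5 genes, 487 of 525 alternative values kept their direction and call, 21 lost the call, 8 gained it and 9 changed sign. With library totals alone, TXNIP at day 8 against day 6 was 0.1164 (0.1792 with a filter at 10 CPM), not called, ARRDC4 at day 6 against day 4 turned to 0.002866, ARRDC4 at day 8 against day 6 was called at -0.2645 (-0.2018 with that filter), SLC2A3 in that comparison was called at -0.5068 (-0.3907 with no filter, -0.444 with that filter, -0.4076 with the compared days alone), and MLXIP at day 6 against day 4 was -0.1318. MLXIP at day 8 against day 6 was not called with no filter (-0.1784) or DESeq2 (-0.1757). MLXIP at day 4 against day 2 turned to -0.002513 with DESeq2-style size factors, -0.01252 with library totals alone and -0.002547 with DESeq2. Leaving out single libraries gave 0.2065 to 0.2589 for TXNIP at day 8 against day 6 (not called without any of the 4 compared libraries), -0.07092 to 0.09287 for ARRDC4 at day 3 against day 1 (reversed also at -0.02164), 0.1319 to 0.1472 for SLC2A1 at day 4 against day 2, -0.05432 to 0.2003 for SLC2A3 at day 3 against day 1, -0.4904 to -0.2849 for SLC2A3 and -0.1919 to -0.1646 for MLXIP at day 8 against day 6, and -0.04604 to 0.08166 for MLXIP at day 4 against day 2 (reversed also at -0.01359). SLC2A3 at day 8 against day 6 was called without either day 0 library, and MLXIP was not without either library of day 1, 3, 6 or 8. The causes were not tested. Other contrasts called 7713 (day 3 minus days 2 and 4), 10109 (odd minus days 2, 4, 6 and 8) and 7485 genes (day 2 minus days 1 and 3, chosen after seeing the data). Levels moved by at most 5.631% with another scaling.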
